A study of Mus musculus with 6 samples.

Results

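The genes described here are 10 genes for proteins that the early liver and the visceral endoderm of the yolk sac secrete: *Afp*, *Alb*, *Apoa1*, *Apoa2*, *Apob*, *Apom*, *Ttr*, *Trf*, *Rbp4* and *Fgb*. They are 10 of the 54356 genes to which transcripts were assigned, and they were chosen by their known products together with their summed counts in the libraries of both groups, as a readout of tissue that lies next to the heart. Their levels and group differences are therefore given as a description with no test.

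The hearts came from E9.5 C57BL/6 mouse embryos. The 3 FlncgKO libraries carry a global deletion of *Flnc*, the gene of the actin crosslinking protein filamin C of striated muscle, made by crossing *Flnc* fl/fl mice with Sox2Cre mice. The 3 control libraries came from littermates, whose alleles at *Flnc* and Cre status are not given in the sources used here. Sox2Cre acts in the epiblast, from which the embryo proper arises. The study also used *Flnc* +/- mice in crosses and typed yolk sac extracts for a knockout allele. Whether the visceral endoderm of the FlncgKO embryos kept *Flnc* is not given in the sources used here. The labels name whole hearts and the study's methods name hearts or isolated ventricles. Neither says how many hearts made up a library, so p-values measure the spread between these libraries only.

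At this stage the liver bud grows out of the foregut endoderm into the septum transversum, directly behind the heart, while the yolk sac still supplies most circulating plasma proteins. Hepatoblasts and visceral endoderm cells share a set of transcription factors, among them HNF4A and FOXA, and a set of abundant secreted products. These include carrier proteins of blood plasma, apolipoproteins that package lipid, and, in hepatoblasts above all, albumin and the fibrinogen chains. Heart muscle is not a major source of most of them, although *Trf*, *Apom* and *Rbp4* are also made in other tissues.

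Each library held 19208859 to 23123255 estimated counts. Levels are given as CPM, a gene's share of its library's counts after TMM scaling for RNA composition, and the 10 genes are ranked against each other in TPM, which is also scaled by transcript length. *Flnc* had 127, 111 and 240 CPM in FlncgKO replicates 1, 2 and 3, against 844, 623 and 746 CPM in control replicates 1, 2 and 3. The 16 cardiomyocyte genes summed to 37180 to 43088 CPM in FlncgKO hearts and 40510 to 45954 CPM in control hearts, so all 6 libraries carried the defining markers of heart muscle. Control replicate 1 stood apart from the other libraries in the genes described here, and results that rest on it are given with and without it.

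The summed level of the 10 genes differed more between libraries of 1 group than between the group means, and none of the 9 genes tested passed the threshold. All 10 had their highest level in control replicate 1, and 9 of the 10 had their highest FlncgKO level in FlncgKO replicate 3. Summed over the 10 genes, the level was 18.9, 13.7 and 55.6 CPM in FlncgKO replicates 1, 2 and 3, against 156, 16.3 and 34.3 CPM in control replicates 1, 2 and 3. The groups thus overlapped, with 1 control library far above, and FlncgKO replicate 3 and control replicate 3 between it and the others. In bulk RNA, fewer cells of a type and less RNA per cell cannot be told apart.

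**Figure D1:**
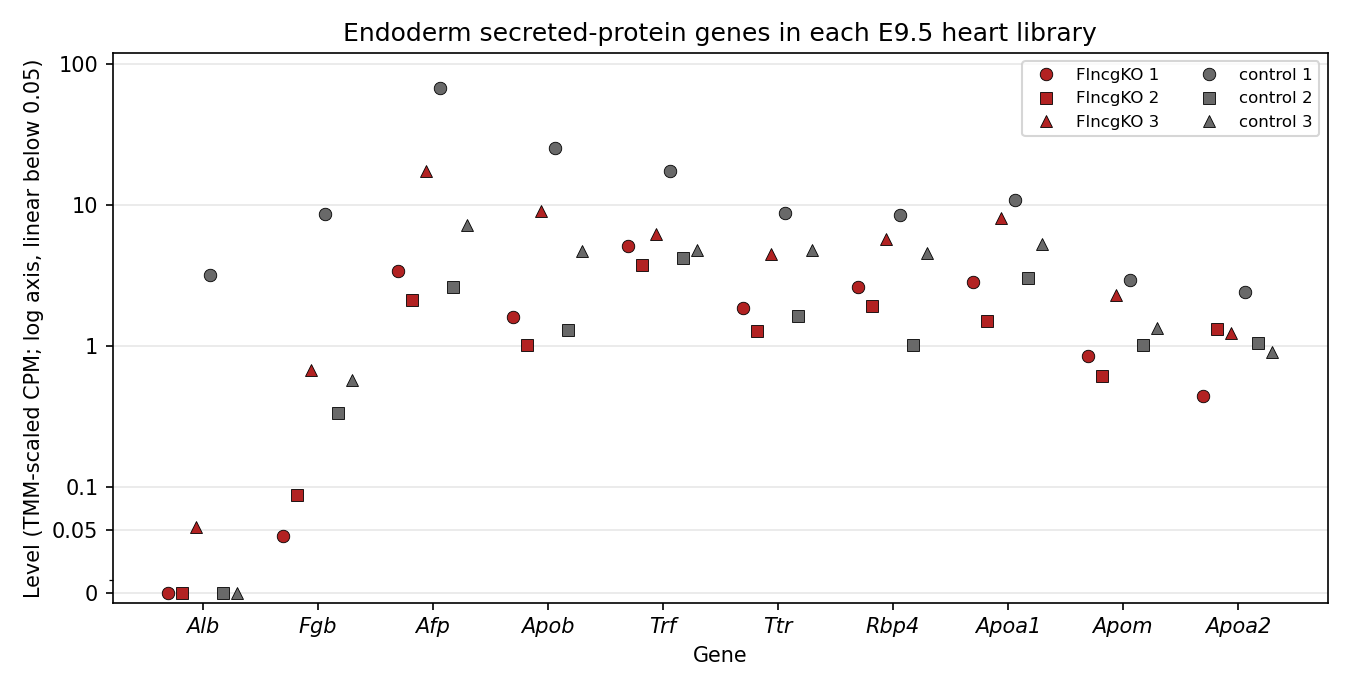
Level of each of the 10 genes (TMM-scaled CPM, log axis that is linear below 0.05) in each library, with FlncgKO libraries in red at left and control libraries in grey at right within each gene, and marker shape giving the replicate number. Control replicate 1 (grey circle) is the highest point for all 10 genes, and *Alb* lies at 0 in 4 of the 6 libraries.

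*Afp* and *Alb*, neighbours on chromosome 5, encode the main plasma carrier proteins of the fetus and of later life. *Afp* (GRCm38 chr5:90490737-90508907) is made by yolk sac and liver alike. It had 3.40, 2.12 and 17.6 CPM in FlncgKO replicates 1, 2 and 3, against 67.7, 2.65 and 7.25 CPM in control replicates 1, 2 and 3. It averaged 7.70 ± 8.58 CPM in FlncgKO hearts and 25.9 ± 36.3 CPM in control hearts (SD, n = 3 each), so that the SD exceeded the mean in both groups. FlncgKO replicates 1 and 2 and control replicate 2 were low, and the ranges of the groups overlapped.

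*Alb* (chr5:90460897-90476602), a marker of hepatoblasts, was nearly confined to 1 library. It had 0, 0 and 1 counts in FlncgKO replicates 1, 2 and 3, against 70, 0 and 0 counts in control replicates 1, 2 and 3. The exact Poisson interval at 95% of the 70 counts was 54.6 to 88.4, which covers counting error only. Set against a floor of 3 counts per library and taking the 70 counts as measured, *Alb* in control replicate 1 was at least 23.9-fold higher than in FlncgKO replicate 1, at least 24.2-fold higher than in FlncgKO replicate 2, and at least 22.1-fold higher than in control replicates 2 and 3. *Alb* did not pass the filter on low counts and has no fitted fold change.

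*Fgb* (chr3:83040141-83049863), which encodes the beta chain of fibrinogen, the precursor of fibrin clots, came next to *Alb* in its concentration in 1 library. It had 1, 2 and 13 counts in FlncgKO replicates 1, 2 and 3, against 189, 7 and 12 counts in control replicates 1, 2 and 3. The Poisson interval of the control replicate 1 count was 163 to 218, and the highest of the other 5 libraries reached an upper bound of 22.2. FlncgKO replicate 3 and the remaining controls overlapped within counting error.

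For *Alb*, *Fgb* and *Afp*, 98.4%, 83.3% and 67.2% of the CPM summed over the 6 libraries lay in control replicate 1, the 3 highest shares among the 10 genes. Over all 16048 genes tested, the median share in control replicate 1 was 16.6%, with 5% of genes below 9.08% and 5% above 20.8%.

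Among the apolipoprotein genes, *Apob* followed *Afp* closely and the others were more even across libraries. *Apob* (chr12:7977648-8016835) encodes the structural protein of the lipoprotein particles that yolk sac and liver export. It had 1.61, 1.01 and 9.07 CPM in FlncgKO replicates 1, 2 and 3, against 25.7, 1.30 and 4.73 CPM in control replicates 1, 2 and 3. The libraries stood in the same order as for *Afp*, with control replicate 1 first, FlncgKO replicate 3 next and FlncgKO replicate 2 last.

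*Apoa1* (chr9:46228580-46230466), the main protein of high-density lipoprotein, had 2.86, 1.50 and 8.19 CPM in FlncgKO replicates 1, 2 and 3, against 10.8, 3.04 and 5.31 CPM in control replicates 1, 2 and 3. Control replicate 1 and FlncgKO replicate 3 lay close together here, unlike for *Afp*. *Apom* (chr17:35128997-35132050), a lipocalin that carries sphingosine 1-phosphate, had 0.850, 0.618 and 2.29 CPM in FlncgKO replicates 1, 2 and 3, against 2.97, 1.01 and 1.35 CPM in control replicates 1, 2 and 3. Its order of libraries was that of *Apoa1*.

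The FoxA motif TGTTTGC was found in 4 of the 10 genes, *Afp*, *Alb*, *Apob* and *Apoa1*, whose promoters are shown because they include 3 of the 4 genes most concentrated in control replicate 1. FoxA proteins open chromatin at endoderm genes, and the search covered both strands of the window from 250 bases before to 50 bases after the RefSeq start (GRCm38.p6). Of the 10 genes, 8 had a promoter in the table, and over all 32851 windows 5.07% held the motif. In the 150 bases printed, 130 lie before the start and 20 from the start on, and capitals mark the motif, which reads GCAAACA where it is on the opposite strand.
Alb (chr5:90460740-90460889, plus strand): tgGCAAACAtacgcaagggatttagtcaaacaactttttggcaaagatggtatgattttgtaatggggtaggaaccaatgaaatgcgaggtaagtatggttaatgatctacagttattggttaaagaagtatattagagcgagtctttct
Afp (chr5:90490584-90490733, plus strand): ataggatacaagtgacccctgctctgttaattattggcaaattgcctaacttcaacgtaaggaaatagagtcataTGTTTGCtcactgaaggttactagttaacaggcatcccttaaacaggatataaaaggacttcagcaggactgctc
Apob (chr12:7977547-7977696, plus strand): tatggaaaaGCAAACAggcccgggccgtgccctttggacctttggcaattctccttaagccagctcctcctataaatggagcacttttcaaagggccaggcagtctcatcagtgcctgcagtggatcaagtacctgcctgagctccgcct
Apoa1 (chr9:46228500-46228649, plus strand): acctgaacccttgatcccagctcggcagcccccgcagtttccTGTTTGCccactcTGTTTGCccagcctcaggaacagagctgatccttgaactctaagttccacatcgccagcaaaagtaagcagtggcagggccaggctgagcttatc
The motif began 128 bases before the start in *Alb*, 55 bases before it in *Afp*, 121 bases before it in *Apob*, and 88 and 75 bases before it in *Apoa1*. The window of *Fgb* held no match. The TATA box TATAAA was in 4 of the 8 windows (*Afp*, *Apoa2*, *Apob* and *Rbp4*) and in 13.6% of all. The marked motifs overlap no TATAAA, and a match is a stretch of letters rather than a known site.

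*Apoa2* (chr1:171225054-171226379), another protein of high-density lipoprotein, departed from the pattern of the others. It had 0.447, 1.32 and 1.25 CPM in FlncgKO replicates 1, 2 and 3, against 2.42, 1.06 and 0.918 CPM in control replicates 1, 2 and 3. Its highest FlncgKO level was in replicate 2 rather than 3, and its lowest control level was in replicate 3 rather than 2. These levels rest on 10 to 53 counts per library, and its counts were split over 4 transcripts, of which the largest held 48.7%.

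The carriers of thyroxine and retinol ranked control replicates 1 and 3 and FlncgKO replicate 3 above the rest, as did *Afp*, *Apob*, *Apoa1*, *Apom* and *Fgb*. *Ttr* (chr18:20665280-20674321) encodes transthyretin, which carries thyroxine and binds the retinol carrier RBP4. It had 1.88, 1.28 and 4.54 CPM in FlncgKO replicates 1, 2 and 3, against 8.87, 1.64 and 4.78 CPM in control replicates 1, 2 and 3. *Rbp4* (chr19:38116629-38125281) had 2.64, 1.94 and 5.74 CPM in FlncgKO replicates 1, 2 and 3, against 8.46, 1.01 and 4.59 CPM in control replicates 1, 2 and 3. In both genes FlncgKO replicate 3 and control replicate 3 lay side by side between control replicate 1 and the other libraries, and the groups overlapped.

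*Trf* (chr9:103204001-103230444), which encodes transferrin, the iron carrier of plasma, was the flattest of the 10 genes outside control replicate 1. It had 5.14, 3.79 and 6.21 CPM in FlncgKO replicates 1, 2 and 3, against 17.4, 4.25 and 4.83 CPM in control replicates 1, 2 and 3. In the 5 libraries other than control replicate 1 its highest level was 1.64 times its lowest, against 2.96 (*Apoa2*) to 15.2 (*Fgb*) times for the other 8 genes with a fitted fold change.

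Compared by TPM averaged over the 6 libraries, *Afp* had the highest level (14.7 TPM), followed by *Rbp4* (8.95 TPM), *Apoa1* (8.51 TPM), *Apoa2* (6.77 TPM), *Ttr* (6.69 TPM) and *Trf* (4.76 TPM). *Apom* (2.60 TPM), *Apob* (1.45 TPM), *Fgb* (0.802 TPM) and *Alb* (0.589 TPM) were lowest. The ranges of every gene and its neighbour in this order overlapped across libraries. *Afp* led the 10 genes in FlncgKO replicate 3 (14.4 TPM) and control replicate 1 (61.0 TPM) only. In the others *Rbp4* or *Apoa2* led, and *Afp* made up 8.16% to 13.2% of the summed TPM. The 0.66 TPM of *Alb* in FlncgKO replicate 3 rests on a single read.

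**Figure D2:**
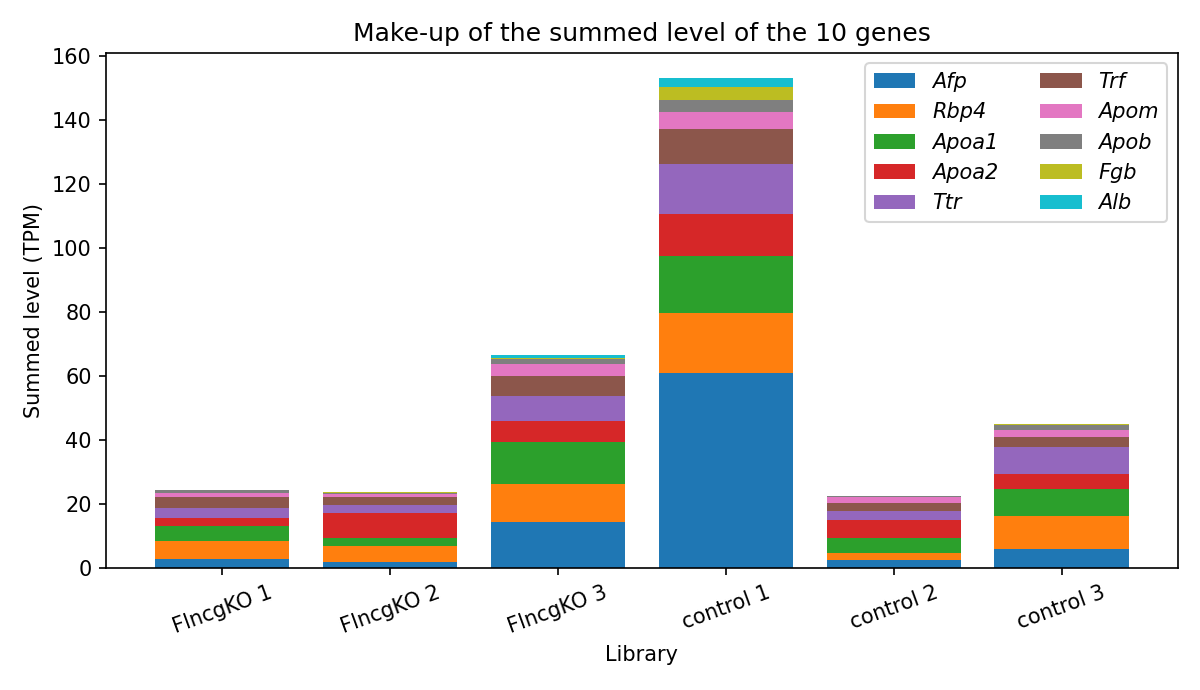
Summed level of the 10 genes (TPM) in each library, FlncgKO libraries at left and control libraries at right, with each bar divided by gene. The bars reach 24.3, 23.7 and 66.4 TPM in FlncgKO replicates 1, 2 and 3, and 153, 22.7 and 44.9 TPM in control replicates 1, 2 and 3, and *Afp* takes 39.8% of the bar of control replicate 1.

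The proportions of the genes to each other separated control replicate 1 from the rest. Ratios of CPM are compared here between libraries only, where the gene's length drops out. The ratio of *Afp* to *Ttr* was 1.81, 1.66 and 3.87 in FlncgKO replicates 1, 2 and 3, against 7.63, 1.62 and 1.52 in control replicates 1, 2 and 3. The ratio of *Afp* to *Apoa1* was 1.19, 1.41 and 2.15 in FlncgKO replicates 1, 2 and 3, against 6.24, 0.873 and 1.36 in control replicates 1, 2 and 3. FlncgKO replicate 3 took the second place in both ratios. The ratio of *Afp* to *Apob* varied less, at 1.94 to 2.11 in FlncgKO hearts and 1.53 to 2.64 in control hearts. The ratio of *Apoa1* to *Ttr* ran between 1.17 and 1.80 in FlncgKO hearts and between 1.11 and 1.85 in control hearts. *Afp* and *Apob* therefore moved together, as did *Apoa1* and *Ttr*, while the first pair varied more than the second between libraries.

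The order of the libraries was shared by most of the 10 genes. The highest level of all 6 libraries was in control replicate 1 for 10 of 10 genes, against 16% of the 16048 genes tested (31.9% were highest there among the controls). FlncgKO replicate 3 was the highest FlncgKO library for 9 of 10, against 36.7% of genes tested. Both held for 9 of 10, against 6% of genes tested, with *Apoa2* the exception. Among the 9 tested, which leaves out the ties of *Alb* at 0, control replicate 2 was the lowest control for 8 (32.2% of genes tested) and FlncgKO replicate 2 the lowest FlncgKO library for 7 (35.7% of genes tested). Control replicate 3 exceeded control replicate 2 for 8 of 10 (47.7% of genes tested), the exceptions being *Apoa2* and *Alb*. The members were listed with these levels known, so the counts describe them and no more.

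In control replicate 1 the levels were 2.45 to 18.8 times the mean of control replicates 2 and 3 for the 9 genes with a fitted fold change. The ratio was 18.8 for *Fgb*, 13.7 for *Afp* and 8.50 for *Apob*, and lay between 2.45 and 3.84 for the other 6. In FlncgKO replicate 3 the levels were 1.39 (*Trf*) to 10.2 (*Fgb*) times the mean of FlncgKO replicates 1 and 2. *Apob* (6.91), *Afp* (6.37) and *Fgb* had the highest ratios there too. A level highest in control replicate 1 and at least 2 times the mean of the other controls was met by 10 of 10 genes. This fold was chosen after the values were seen, and 70 genes tested met it, 0.436% of them. Genes that failed the filter on low counts, *Alb* among them, are not in that share.

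**Figure D3:**
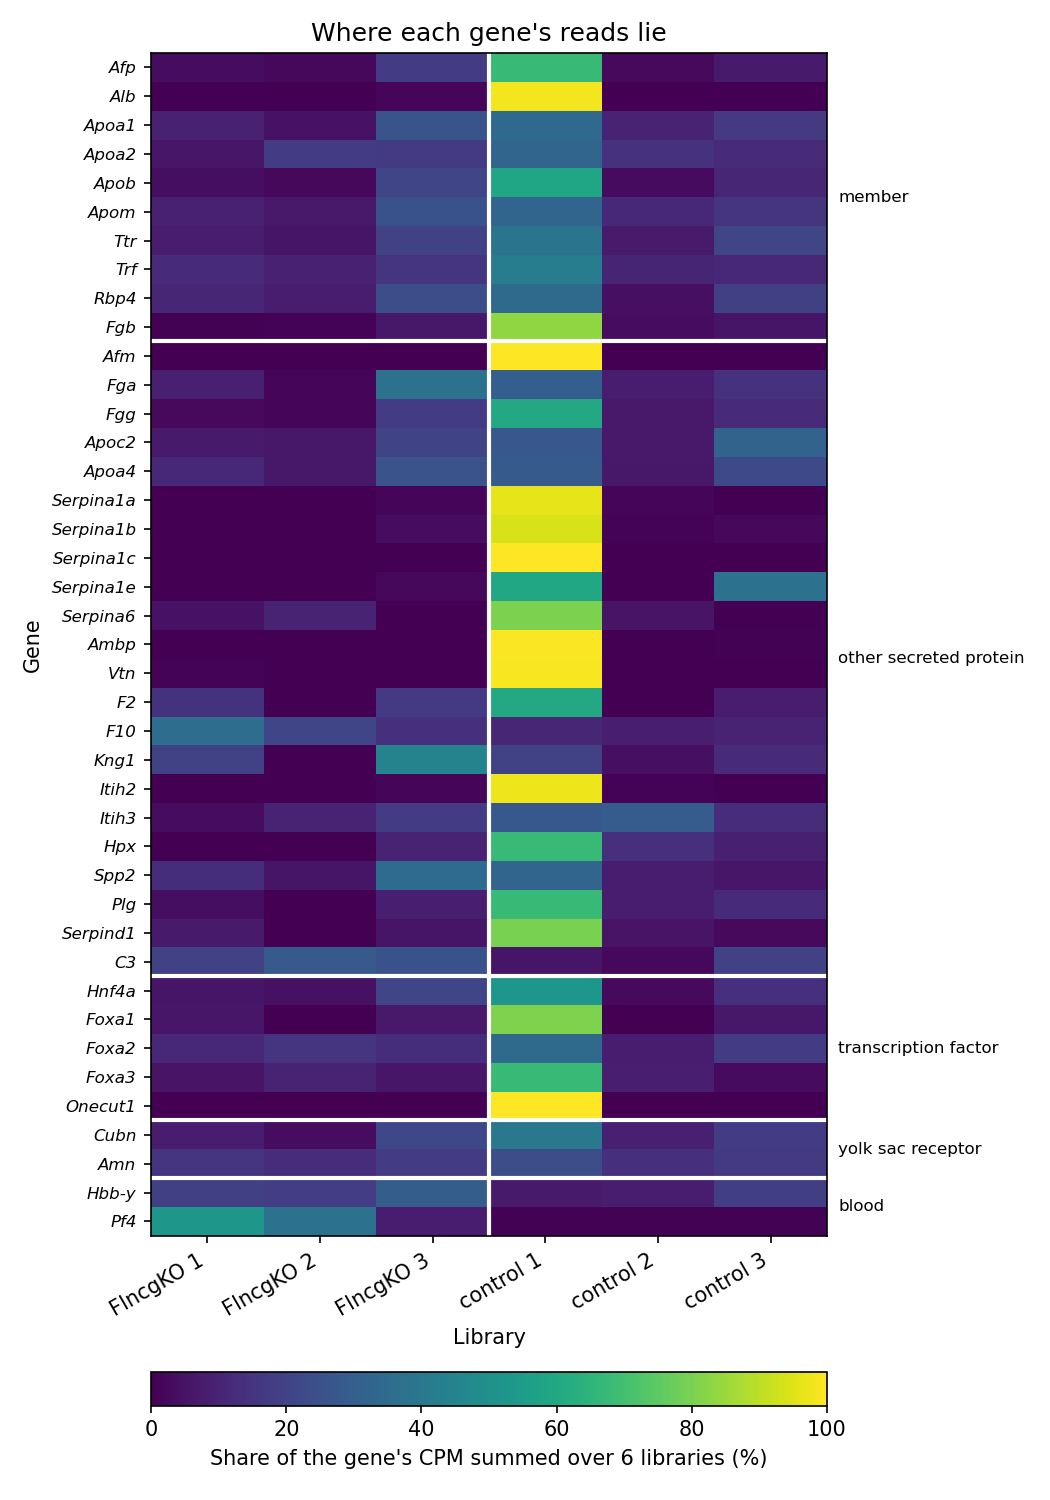
Share of each gene's CPM, summed over the 6 libraries, that lay in each library (%, color), with FlncgKO libraries left of control libraries. Shown are the 10 genes, the 22 listed secreted proteins with at least 10 counts in a library, some transcription factors, yolk sac receptors and blood genes. Many of the 22 reached 10 counts only in control replicate 1. In control replicate 1, *Alb*, *Fgb*, *Afm*, *Ambp*, *Vtn*, *Itih2*, *Onecut1*, *Serpina1a*, *Serpina1b* and *Serpina1c* are brightest (83.3% to 100%). By contrast, *Hbb-y* and *Pf4* are dark there (7.15% and 0.765%).

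Between the groups, no member passed the threshold. Of the 9 genes tested, 0 had an adjusted p under 0.05 with edgeR's quasi-likelihood test and Benjamini-Hochberg adjustment over all genes, where 1.31% of all genes tested did (1.06% higher and 0.249% lower in FlncgKO hearts). At an unadjusted p under 0.05 the count was also 0 of 9 (22.2% of all genes), and DESeq2 called 0 of 9 (8.81% of all genes, with 6.42% higher and 2.39% lower). Without control replicate 1, edgeR called 0 of 9 and 0.00605% of all genes. The values of the FlncgKO and control libraries overlapped for all 10 genes, whereas 29.7% of genes tested had groups that did not overlap. Since the genes were listed with this contrast known, nothing is read from these counts.

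All 9 fitted log2 fold changes, FlncgKO over control, were negative, with a median of -0.81, against 0.01 over all genes tested. The standard errors, 0.52 to 1.74, were of the size of the changes. *Fgb* had a log2 fold change of -3.60 (SE 1.74), the lowest fitted value among all genes tested, *Afp* of -1.77 (SE 1.59) and *Apob* of -1.45 (SE 1.45). *Ttr* had -0.999 (SE 0.75), *Trf* -0.81 (SE 0.62), *Apoa1* -0.62 (SE 0.78), *Apoa2* -0.55 (SE 0.52), *Apom* -0.52 (SE 0.61) and *Rbp4* -0.45 (SE 0.81).

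Without control replicate 1 the median log2 fold change of the 9 genes was 0.07, against 0.01 over all genes tested. *Afp* then had 0.63 (SE 1.16), *Apob* 0.36 (SE 1.22), *Rbp4* 0.29 (SE 0.79) and *Trf* 0.15 (SE 0.25). *Apom* (0.07), *Apoa2* (0.02) and *Apoa1* (-0.01) were near 0. *Ttr* (-0.33, SE 0.71) and *Fgb* (-0.81, SE 1.05) kept a negative sign. Without FlncgKO replicate 3, by contrast, all 9 were more negative, with -5.47 for *Fgb*, -3.23 for *Afp* and -3.01 for *Apob*. The sign of 6 of the 9 differences thus turned without 1 control library.

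**Figure D4:**
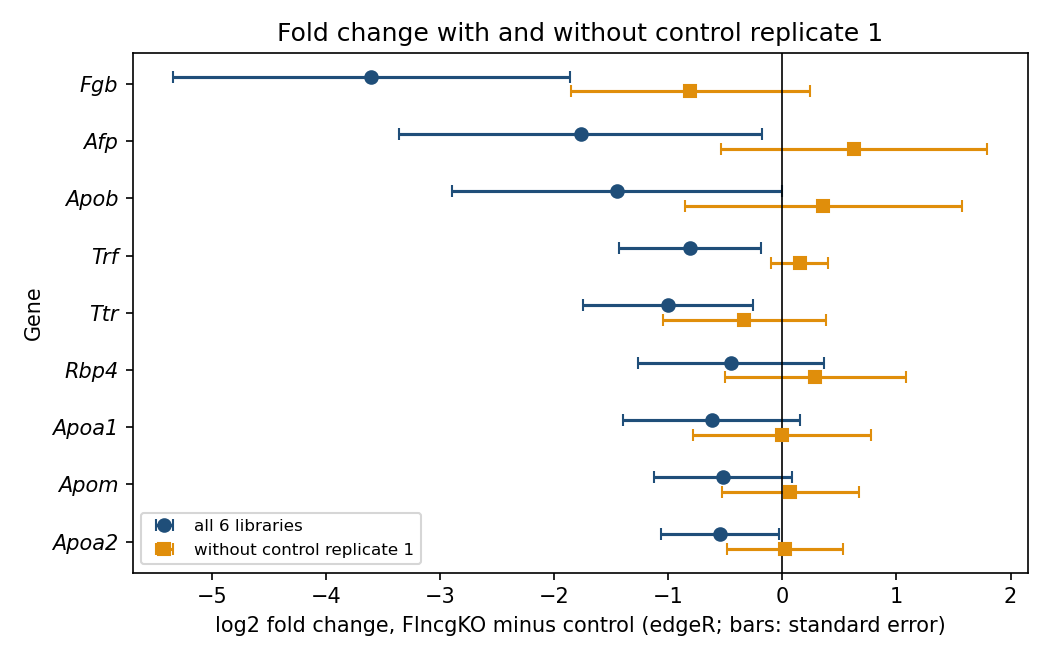
Log2 fold change (FlncgKO minus control, edgeR) of the 9 genes with a fitted value, from all 6 libraries (blue circles) and without control replicate 1 (orange squares), with bars of 1 standard error. All 9 blue points are below 0, from -3.60 to -0.45, and the orange points lie between -0.81 and 0.63.

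Other secreted proteins of liver and endoderm were in part still more concentrated in 1 library. Of 30 listed, 18 were highest in control replicate 1, against 16% of all genes tested. At least 10 counts in a library were found for 22, of which 15 were highest in control replicate 1. Of these, 7 had at least 90% of their summed CPM there. Many of the 22 reached 10 counts only in control replicate 1, among them all 7 with at least 90% there. The filter therefore favoured that library, and nothing is read from the counts after it. *Itih2*, an inter-alpha-trypsin inhibitor heavy chain, had 0.04, 0 and 0.26 CPM in FlncgKO replicates 1, 2 and 3, against 21.2, 0.19 and 0.05 CPM in control replicates 1, 2 and 3. Chosen after their values were seen, *Ambp*, *Vtn* and *Afm* had 99.3%, 99.1% and 100% of their CPM in control replicate 1. *Ambp* (bikunin precursor) had 0 counts in all 3 FlncgKO hearts, against 156, 0 and 1 counts in control replicates 1, 2 and 3. *Afm*, beside *Afp* and *Alb* on chromosome 5, had 0 counts in all 3 FlncgKO hearts, against 24, 0 and 0 counts in control replicates 1, 2 and 3. *Serpina1b* had 93.9% there, although the *Serpina1* genes are near-identical copies and their counts are uncertain.

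The other fibrinogen chains were less confined than *Fgb*. *Fgg*, the gamma chain, had 0.09, 0.04 and 0.63 CPM in FlncgKO replicates 1, 2 and 3, against 2.20, 0.24 and 0.43 CPM in control replicates 1, 2 and 3. *Fga*, the alpha chain, had 0.27, 0.04 and 1.15 CPM in FlncgKO replicates 1, 2 and 3, against 0.91, 0.24 and 0.43 CPM in control replicates 1, 2 and 3, and so was highest in FlncgKO replicate 3. The share in control replicate 1 was 60.5% for *Fgg* and 29.99% for *Fga*, against 83.3% for *Fgb*. All 3 chains were low in FlncgKO replicates 1 and 2.

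A different profile was seen for *Apoa4* and *Apoc2*, apolipoproteins that yolk sac and gut also make. *Apoa4* had 1.12, 0.66 and 2.56 CPM in FlncgKO replicates 1, 2 and 3, against 2.84, 0.63 and 2.22 CPM in control replicates 1, 2 and 3. *Apoc2* had 0.63, 0.53 and 1.72 CPM in FlncgKO replicates 1, 2 and 3, against 2.29, 0.58 and 2.71 CPM in control replicates 1, 2 and 3. These 3 libraries, FlncgKO replicate 3 and control replicates 1 and 3, were above the other 3 for both genes, and control replicate 1 did not stand far above the other high libraries. *F10* (coagulation factor X) and *C3* (complement), which leukocytes also make, were not highest in control replicate 1. *F10* averaged 9.07 ± 4.27 CPM in FlncgKO hearts and 3.78 ± 0.4998 CPM in control hearts (SD, n = 3 each, adjusted p = 0.101). *C3* averaged 5.10 ± 0.941 CPM in FlncgKO hearts and 1.96 ± 1.98 CPM in control hearts (adjusted p = 0.340). Only 4 of the 30 passed the filter on low counts, and 0 of these 4 passed the threshold with edgeR, while 1, *F10*, had an unadjusted p under 0.05 and was called higher by DESeq2.

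Most transcription factors of endoderm and liver bud, 13 of 18 listed, were highest in control replicate 1, against 16% of all genes tested. *Hnf4a*, which drives apolipoprotein and coagulation genes in yolk sac and liver, had 0.58, 0.44 and 2.09 CPM in FlncgKO replicates 1, 2 and 3, against 5.26, 0.24 and 1.40 CPM in control replicates 1, 2 and 3. That is the order of *Afp* except for the place of control replicate 2. Named after their values were seen, *Onecut1*, *Foxa1* and *Foxa3* had 100%, 80.8% and 67.9% of their CPM in control replicate 1. The 3 with the highest CPM, *Gata4*, *Gata6* and *Prox1*, are also cardiac genes with only 18.9% to 19.1% of their CPM in control replicate 1, and their log2 fold changes were -0.17, -0.13 and -0.12 (adjusted p 0.278 to 0.375). Other liver bud factors, named after their values were seen, did not follow *Afp*. *Hhex* had 18.1, 24.3 and 11.1 CPM in FlncgKO replicates 1, 2 and 3, against 14.3, 9.80 and 10.4 CPM in control replicates 1, 2 and 3 (edgeR adjusted p = 0.295). *Hlx* had 6.04, 8.43 and 2.71 CPM in FlncgKO replicates 1, 2 and 3, against 1.23, 0.483 and 2.90 CPM in control replicates 1, 2 and 3 (edgeR adjusted p = 0.203, DESeq2 adjusted p = 0.0245). Of the 13 tested, 1 was higher (*Sox17*) and 0 lower past the threshold with edgeR, and DESeq2 called *Sox17* and *Hlx* higher, with a median log2 fold change of -0.27 that was -0.06 without control replicate 1.

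Among 16 genes of absorptive yolk sac cells, 0 of the 13 tested passed the threshold with edgeR (2 at an unadjusted p under 0.05), DESeq2 called *Lrp2* and *Ctsz* higher, and 8 of the 16 were highest in control replicate 1. *Cubn*, the endocytic receptor cubilin, had 3.67, 1.59 and 10.01 CPM in FlncgKO replicates 1, 2 and 3, against 18.3, 3.96 and 8.21 CPM in control replicates 1, 2 and 3. *Rhox5*, a homeobox gene of extraembryonic lineages, had 5.05, 1.68 and 16.6 CPM in FlncgKO replicates 1, 2 and 3, against 4.67, 2.80 and 16.0 CPM in control replicates 1, 2 and 3. *Rhox5* was thus high in replicate 3 of both groups and not in control replicate 1. Both genes were picked after their values were seen. The genes of the list with the highest CPM were *Dab2* and *Ctsz*, which are expressed widely, and *Mttp*, which loads lipid onto APOB. *Mttp* averaged 30.4 ± 3.14 CPM in FlncgKO hearts and 30.5 ± 5.59 CPM in control hearts (SD, n = 3 each), while *Dab2* was at 0.14 and *Ctsz* at 0.27 on the log2 scale (edgeR adjusted p 0.452 and 0.0599, DESeq2 adjusted p 0.0161 for *Ctsz*).

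In the lipoprotein list, 0 of 17 tested genes were higher and 1 lower past the threshold with edgeR, while DESeq2 called 2 higher (*Vldlr* and *Scarb1*) and 2 lower (*Lpl* and *Abca1*), with a median log2 fold change of 0.03. The gene called by both, *Lpl*, encodes lipoprotein lipase, which releases fatty acids from circulating particles at the vessel wall. *Lpl* had 64.4, 65.9 and 61.7 CPM in FlncgKO replicates 1, 2 and 3, against 84.3, 89.3 and 80.4 CPM in control replicates 1, 2 and 3 (log2 fold change -0.40, SE 0.06, adjusted p = 0.0372). The receptors *Lrp1* and *Scarb1* and the apolipoprotein *Apoe* had the highest CPM of the list, at 0.13, 0.48 and 0.18 on the log2 scale (edgeR adjusted p 0.212 to 0.357, DESeq2 adjusted p 0.0473 for *Scarb1*). *Vldlr*, a lipoprotein receptor named after its values were seen, had 95.3, 189.4 and 71.4 CPM in FlncgKO replicates 1, 2 and 3, against 24.0, 27.2 and 31.3 CPM in control replicates 1, 2 and 3 (edgeR log2 fold change 2.11, SE 0.42, adjusted p = 0.0850).

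For iron, the receptor that takes up transferrin was higher in FlncgKO hearts. *Tfrc* had 444.9, 469.2 and 423.8 CPM in FlncgKO replicates 1, 2 and 3, against 324.5, 322.7 and 337.9 CPM in control replicates 1, 2 and 3 (log2 fold change 0.44, SE 0.05, adjusted p = 0.0310). Its ligand gene *Trf* did not follow it, as given above. *Tfrc* was the only call among the 13 tested iron genes, and the ferritin chains *Ftl1* and *Fth1* were at 0.14 and 0.26 on the log2 scale (edgeR adjusted p 0.686 and 0.646). The retinol and retinoic acid list, which holds the partners of RBP4, gave 0 calls among 15 tested genes with edgeR, 4 at an unadjusted p under 0.05, and 1 higher and 1 lower with DESeq2. Its genes with the highest CPM, the receptors *Rara* and *Rxra* and the retinoic acid hydroxylase *Cyp26b1*, were at 0.14, -0.12 and 0.11 on the log2 scale (edgeR adjusted p 0.272 to 0.828).

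Of the 15 genes for fibrinogen chains and liver coagulation proteins other than *Fgb*, 3 were tested and 0 passed with edgeR, although all 3 had an unadjusted p under 0.05 and DESeq2 called all 3 higher. These were *Pros1* (protein S, log2 fold change 1.03, adjusted p = 0.0534), *F5* (factor V, 3.99, adjusted p = 0.0755) and *F10* (1.26). They are made outside the liver too, and their fitted values were positive where that of *Fgb* was negative. Of the 13 genes of this list with counts, 7 were highest in control replicate 1, as *Fgb* was, against 16% of all genes tested. *F5* averaged 17.4 ± 11.5 CPM in FlncgKO hearts and 1.09 ± 0.197 CPM in control hearts (SD, n = 3 each), and only 1.65% of its CPM lay in control replicate 1.

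The summed markers of other tissues were spread differently over the libraries. Erythroid genes, 18 in all, summed to 9275, 8153 and 13507 CPM in FlncgKO replicates 1, 2 and 3, against 3579, 3479 and 9772 CPM in control replicates 1, 2 and 3. They were thus lowest in control replicates 1 and 2 and high in replicate 3 of both groups, and 0 of 18 were highest in control replicate 1. The 15 platelet genes summed to 2105, 1362 and 442 CPM in FlncgKO replicates 1, 2 and 3, against 145, 141 and 160 CPM in control replicates 1, 2 and 3. The 12 genes of septum transversum and proepicardium, the mesenchyme into which the liver bud grows, summed to 373, 348 and 414 CPM in FlncgKO replicates 1, 2 and 3, against 483, 440 and 377 CPM in control replicates 1, 2 and 3. The 17 foregut epithelium genes summed to 460, 616 and 730 CPM in FlncgKO replicates 1, 2 and 3, against 251, 186 and 401 CPM in control replicates 1, 2 and 3. *Krt8*, *Krt19* and *Krt18*, keratins shared by many simple epithelia, held most of that sum, with adjusted p of 0.299, 0.106 and 0.340. The genes of the tissue lists with the highest CPM did not pass the threshold (edgeR adjusted p 0.0850 to 0.946). Their log2 fold changes were 1.004 for *Hbb-y* and 0.87 for *Hbb-bh1* (embryonic globins), 3.36 for *Thbs1* and 2.13 for *Itgb3* (platelets), and -0.15 for *Alcam* and -0.29 for *Hand2* (septum transversum list). They were -0.10 for *Actc1* and -0.43 for *Myh6* (heart muscle), 0.22 for *Kdr* and 0.31 for *Cdh5* (endothelium), and 0.30 for *Tfap2c* and 5.04 for *Wnt6* (surface ectoderm list). The part of blood or neighbouring tissue in the levels of the 10 genes was not tested.

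Among the marker and transcription factor lists, the genes past the threshold with edgeR were all higher in FlncgKO hearts. They were *Sox17* (foregut and transcription factor lists, log2 fold change 1.96, SE 0.15, adjusted p = 0.0128), *Tfrc* and *Trim58* (2.45) of the 18 erythroid genes, *Ly6g6f* (5.23) of 15 platelet genes, *Emcn* (1.24) of 10 endothelial genes and *Dlx3* (3.63) of 4 tested surface ectoderm genes, with log2 fold changes in parentheses and adjusted p of 0.0310 to 0.0423. All 15 platelet genes had an unadjusted p under 0.05 and a positive log2 fold change, with a median of 3.98, and DESeq2 called all 15 higher. Of the endothelial genes DESeq2 called 4 higher and 2 lower, and of the cardiomyocyte genes 1 higher and 2 lower. *Sox17* averaged 17.6 ± 3.29 CPM in FlncgKO hearts and 4.54 ± 0.127 CPM in control hearts (SD, n = 3 each). All of these calls and that of *Lpl* ended without control replicate 1 (adjusted p 0.142 to 0.216) and without control replicate 2 (adjusted p 0.163 to 0.207). Over all genes tested, 210 passed with all 6 libraries, 1 without control replicate 1 and 1 without control replicate 2. The loss was therefore not particular to these genes. Without FlncgKO replicate 3, where 989 genes were higher and 283 lower past the threshold, *Sox17*, *Tfrc* and *Lpl* were among those called. Of the 7 genes, *Sox17* and *Dlx3* kept their call without FlncgKO replicate 1, *Sox17* alone without FlncgKO replicate 2, and *Sox17* and *Tfrc* without control replicate 3. The 16 cardiomyocyte genes and the 12 septum transversum genes had 0 calls with edgeR, with 6 and 3 genes at an unadjusted p under 0.05 and with 3 and 0 calls by DESeq2.

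Across the 6 libraries, the genes whose log2 CPM was most like that of the summed level of *Afp*, *Alb*, *Apoa1*, *Apoa2*, *Apob*, *Ttr* and *Fgb* were ranked among 14338 genes with a mean of at least 1 CPM. The 10 highest Pearson correlations were those of *Ncoa5*, *Terf2ip*, *Hnf4a*, *Utp14b*, *Nog*, *Gpr37*, *Nupl2*, *Amn*, *Resf1* and *Ints5*, with r of 0.97 to 0.98, and 8 of them were also among the 10 most like *Afp* alone. The 6 libraries share their depth and composition across genes, so each r is a description with no test. Only *Hnf4a* varied on the scale of the 10 genes, with a highest level 21.8 times its lowest, while the other 9 spanned 1.07 to 1.88 times. *Amn*, the partner of cubilin in the yolk sac, had 1.61, 1.32 and 1.83 CPM in FlncgKO replicates 1, 2 and 3, against 2.42, 1.40 and 1.74 CPM in control replicates 1, 2 and 3.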

How the data were processed

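RNA with poly(A) tails from 3 FlncgKO and 3 littermate control E9.5 hearts was sequenced after strand-specific library preparation. The authors assigned reads to GENCODE M22 transcripts (GRCm38.p6) with salmon, whose version is not given in the sources used here. The deposited files list, for each of 140658 transcripts, an estimated count, a TPM value and lengths, of which the effective lengths (unit other) served for 1 alternative. Transcripts were matched to genes through GENCODE M21 (also GRCm38), and the 0.37% that had none (0.108% to 0.131% of counts) were dropped. Per gene, estimated counts were added up in Python 3.11.15 and rounded, and so were the TPM of the authors, without rounding. Positions are those of GENCODE M21 and promoters those of RefSeq.

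Of 54356 genes, 16048 passed edgeR's filter (minimum 10 counts). They were tested with edgeR 4.0.16 (quasi-likelihood, robust, TMM) in R 4.3.3, and p-values were adjusted by Benjamini-Hochberg over all of them, with calls at 0.05. Standard errors (SE) were not taken from the fit directly. Each is the absolute log2 fold change divided by the square root of the quasi-likelihood F statistic. The procedure was tested on simulated data. CPM uses the TMM-scaled library size, and a pseudocount of 0.5 CPM entered log2 CPM in correlations. Deviations from the group means correlated at 0.09, 0.57 and 0.62 between libraries of equal number. FlncgKO replicates 2 and 3 thus correlated best with the control of their own number. FlncgKO replicate 1 did not (0.094, against 0.097 with control replicate 2). These values do not settle whether equal numbers are pairs. The sample titles name no pairs, so the main fit took none, and the replicate number as a block was an alternative.

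The genes and lists were chosen with earlier results of these data known. Calls within a list stand beside the shares over all genes. These were 1.31% with edgeR, 22.2% at an unadjusted p under 0.05 with edgeR, and 8.81% with DESeq2. Named were all 10 genes, the genes of each list past the threshold and its 2 or 3 most abundant genes, the 10 most alike genes, and *Flnc*. Genes named after their values were seen are marked so, and some genes are not reported here. Alternatives were RLE or total-count scaling, other filters, length offsets, a replicate block, a Y-linked covariate, globin genes left out, each library left out, DESeq2 1.42.0, and, chosen after seeing the data, DESeq2 without control replicate 1. The authors' own test used DESeq2 1.22.2.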

Additional observations from a re-analysis of the deposited data

How the results depend on the processing

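The fold changes of the 9 tested genes, 143 values under the alternatives, held 0 values past the threshold and 131 negative ones. Their median log2 fold change was -0.63 with length offsets and -1.58 with the Y-linked covariate, and 0.07 to -1.55 when each library was left out in turn. All 10 genes stayed highest in control replicate 1 with total counts and with the authors' TPM. Over all genes, 170 were higher and 40 lower past the threshold. The counts were 392 and 162 with no filter, 215 and 62 with 10 counts in every library, 61 and 13 with length offsets, 0 and 0 with the Y-linked covariate (904 and 388 at an unadjusted p under 0.05), and 990 and 368 with DESeq2. DESeq2 without control replicate 1 gave 562 and 128. Leaving out each library gave 1 to 989 higher and 0 to 283 lower. With the replicate number as a block there were 512 higher and 120 lower, and not every library correlated best with its own number. Of 239 medians of the other lists under the alternatives, 50 moved by more than the spread of the controls, and the surface ectoderm list had no gene left with 10 counts in every library. The causes were not tested. At this depth, levels under 3 counts per library could not be told from 0, which limits *Alb* and *Fgb*, and the genes found almost only in control replicate 1 failed the filter that a fitted fold change needs.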

Other observations

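Some of the 10 genes had most of their CPM in control replicate 1, as few other tested genes did. The filter on low counts leaves out genes found almost only in 1 library, such as *Alb* (98.4% in control replicate 1) and *Afm* (100%). The counts that follow therefore do not show how rare such genes are. Of the 16048 tested, 7 had at least 50% of their summed CPM there, of which *Afp*, *Apob* and *Fgb* were 3. The others included *Hnf4a* (52.5%), *Serpinf2* (82.5%) and *Gm42417* (54.0%). *Serpinf2*, the plasmin inhibitor secreted by liver, had 0.134, 0.221 and 0.886 CPM in FlncgKO replicates 1, 2 and 3, against 9.06, 0.193 and 0.483 CPM in control replicates 1, 2 and 3. By comparison, 89 genes had at least 50% of their CPM in FlncgKO replicate 3, 36 in FlncgKO replicate 1, 10 in FlncgKO replicate 2, 1 in control replicate 2 and 4 in control replicate 3.

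*Lrp2* (megalin), the endocytic partner of cubilin in yolk sac, had a profile unlike that of *Cubn*. It had 8.63, 34.9 and 48.8 CPM in FlncgKO replicates 1, 2 and 3, against 8.51, 3.67 and 3.57 CPM in control replicates 1, 2 and 3 (adjusted p = 0.169 with edgeR and 0.0166 with DESeq2). The summed level of 4 Y-linked genes was 80.7, 3.88 and 4.28 CPM in FlncgKO replicates 1, 2 and 3, against 117, 140 and 122 CPM in control replicates 1, 2 and 3. The order of the libraries in the 10 genes did not follow it.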
